A study of Homo sapiens with 6 samples.

Results

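The genes of the ATP-binding cassette (ABC) superfamily were examined in HCC827, an established cell line from a human lung adenocarcinoma in which EGFR is activated by a deletion. Bulk RNA-seq of poly(A) RNA gave 6 libraries from 1 cell line, 3 from cells kept in the vehicle DMSO and 3 from cells kept in 1 μM erlotinib, a small molecule that blocks the EGFR kinase, all for 24 h. The labels name no other treatment or genetic change in either group. Members were 45 of the 28395 genes of the deposited table, taken from the rows whose symbol is ABC, a subfamily letter from A to G and a number, and member counts of subfamilies refer to these 45. The labels do not state whether the libraries of a group came from separate cultures, so the p-values measure the spread between these libraries, which may be technical. Recovered reads on genes were 20858083, 24641819 and 21172884 in the DMSO libraries and 21944007, 20760204 and 21678395 in the erlotinib libraries. DMSO replicate 2, the most deeply sequenced, stood apart from the other DMSO libraries, with a chi-square per degree of freedom of 22.9 against replicate 1 and 14.4 against replicate 3, compared with 7.61 between replicates 1 and 3 and 4.05 to 5.87 between erlotinib libraries. Results that rest on it are given with and without it.

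ABC proteins bind and hydrolyse ATP, and most of them use this energy to move a substrate across a membrane. Subfamilies A, B, C, D and G carry membrane-spanning domains and transport lipids, sterols, bile salts, peptides, fatty acids and drug conjugates, whereas subfamilies E and F have ATP-binding domains only and act on ribosomes. In tumour cells the family is best known for pumps that remove anticancer drugs, and erlotinib itself is known to be bound and carried by ABCB1 and ABCG2.

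The labelled cell type was checked against marker genes. The summed signal of 6 epithelial markers, of which EGFR was the most abundant, was 237586, 222228 and 226487 in the DMSO libraries and 152092, 153495 and 159147 in the erlotinib libraries, where signal is the number of reads divided by the size factor of the library. In these markers 4 of 6 fell (KRT8, KRT18, KRT19 and EGFR) and 0 rose, where 35.4% of all 14215 tested genes were lower and 35.3% higher. The 5 fibroblast markers summed to 71.5, 75.2 and 107 with DMSO and 259, 223 and 215 with erlotinib, nearly all of it COL1A1, which rose (log2 fold change 1.47 ± 0.19 (SE), adjusted p = 6.78e-07), while the other 4 had at most 20 reads in any library, with COL1A2 at most 2. The 5 immune markers summed to 2777, 2795 and 3156 with DMSO and 3238, 3537 and 3469 with erlotinib, nearly all of it CD68 (log2 fold change 0.23, adjusted p = 0.00762). The other 4 immune markers had at most 26 reads in any library, reached by CD14, and PTPRC had at most 6. The 4 endothelial markers summed to 34.0, 15.8 and 20.3 with DMSO and 58.1, 46.5 and 45.9 with erlotinib. Of these, VWF rose (log2 fold change 2.74, adjusted p = 6.62e-04), from 3, 1 and 7 reads to 38, 26 and 23. VWF reached the mean signal of 10 needed for testing through its erlotinib libraries alone (mean 3.94 with DMSO and 27.4 with erlotinib). PECAM1, with at most 17 reads, did not pass (log2 fold change -0.55, adjusted p = 0.348). CDH5 had at most 13 reads and KDR at most 4. Their part in the results on the ABC genes was not tested.

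Erlotinib treatment moved the ABC genes in both directions. Lipid transporters were found among the higher and among the lower members. Several exporters of drug conjugates were higher, and ABCE1, ABCF2 and ABCG2 were among those lower. Of the 45 members, 25 had a mean signal of at least 10 over the 6 libraries and were tested with limma on log2(signal + 1). Of these 25, 12 were higher and 8 were lower with erlotinib at an adjusted p under 0.05, and 5 passed in neither direction. In such bulk RNA, a change in RNA per cell and a change in the share of cells that make it cannot be told apart. Among all 14215 genes tested, 35.3% were higher and 35.4% lower, 70.7% in all, against 48% and 32% of the tested ABC genes, so the changes of the ABC genes stood in a background in which most genes changed, and the shares were not tested against each other. The median log2 fold change was 0.13 over the 25 members and 0.02 over all tested genes. A change of at least 1 log2 unit was called for 4 members upward (17.0% of all tested genes) and 3 downward (10.8% of all tested genes). ABCA13, 1 of these 3, passed the minimum mean signal through its DMSO libraries alone. The 3 erlotinib values lay outside the range of the 3 DMSO values in 20 of the 25 members, and in 73.6% of all tested genes. Without the members that overlap another listed gene or have a copy of at least 90% of their transcript, 16 were tested, of which 6 were higher and 6 lower. Without DMSO replicate 2, 13 members were higher and 9 lower. When each library was scaled to its total count, 14 members were higher and 7 lower, but the median of all genes also moved from 0.02 to 0.19, and the split of all genes moved from 5012 higher and 5031 lower to 6156 and 3955.

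**Figure D1:**
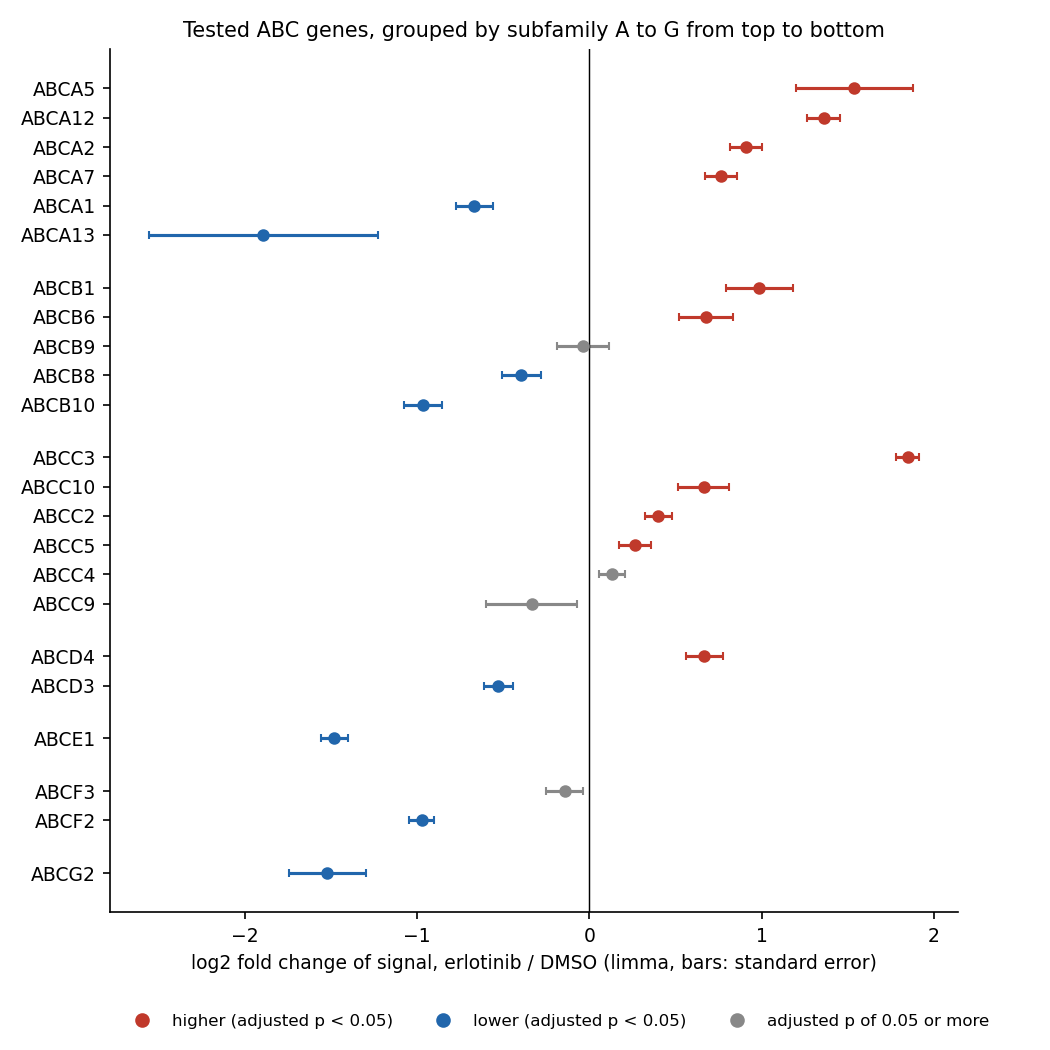
Log2 fold change of signal with erlotinib relative to DMSO (x axis, limma, bars are standard errors) for 23 of the tested ABC genes, grouped by subfamily from A at the top to G at the bottom. Red marks 11 genes that were higher, blue 8 that were lower and grey 4 with an adjusted p of 0.05 or more. Of all tested genes, 35.3% were higher and 35.4% lower.

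The subfamilies were then compared by their counts and medians, with no test between them and beside the 35.3% higher and 35.4% lower of all tested genes. Subfamily A, the full-length lipid transporters, had 6 of 11 members tested, of which 4 rose and 2 fell (median log2 fold change 0.83). In subfamily B, 6 of 9 were tested, and 2 rose, 2 fell and 2 did neither (median 0.03, and from -0.02 to 0.11 when 1 DMSO library was left out). Subfamily C, which holds the multidrug resistance proteins, had 6 of 12 tested, of which 4 rose and 0 fell (median 0.33). With scaling to the total count, the median was 0.21 for subfamily B and 0.51 for subfamily C, beside 0.19 for all tested genes. In subfamily D, whose proteins work in pairs, 3 of 4 were tested, 2 rose and 1 fell (median 0.67). The only member of subfamily E fell (-1.48), and of the 3 members of subfamily F 2 were tested, of which 1 fell and 1 did neither (median -0.56). Subfamily G had 1 of 5 members tested, ABCG2, which fell (-1.52). Put together, the subfamilies with membrane domains had 12 higher and 6 lower of 22 tested (median 0.33), and subfamilies E and F had 0 higher and 2 lower of 3 tested (median -0.97). Nothing particular to a subfamily was read from these counts.

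The drug exporters were examined member by member, because they are known for removing anticancer drugs from cells. Of 10 members listed as drug exporters, 7 were tested, 5 were higher, 1 was lower and 1 passed in neither direction, with a median log2 fold change of 0.40. Of all tested genes 35.3% were higher and 35.4% lower, against 71.4% and 14.3% of these 7, and the shares were not tested against each other. Without the exporters that overlap another listed gene (ABCB1, ABCC5 and ABCC10), 4 were tested, of which 2 were higher and 1 lower. ABCC3 (chr17:50634881-50692253 in GRCh38, plus strand), an exporter of glucuronide and glutathione conjugates and of bile salts, had a signal of 2702, 2558 and 2922 in the DMSO libraries and of 9887, 9521 and 9987 in the erlotinib libraries. The groups were far apart, and its rise was the largest among the 25 tested ABC genes (log2 fold change 1.85 ± 0.07 (SE), adjusted p = 1.69e-15). It held its direction and call in all 14 alternatives, with log2 fold changes from 1.80 to 2.03.

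ABCG2 and ABCB1, the exporters known to handle erlotinib, moved in opposite directions. The signal of ABCG2 (chr4:88090264-88231626, minus strand), the breast cancer resistance protein, was 138, 130.0 and 119 with DMSO and 50.8, 39.6 and 43.1 with erlotinib. Each DMSO value was more than the highest erlotinib value, and ABCG2 fell (log2 fold change -1.52 ± 0.22 (SE), adjusted p = 3.77e-06). For ABCB1 (chr7:87503017-87713295, minus strand), the P-glycoprotein, the signal was 94.2, 73.4 and 68.5 with DMSO and 148, 164 and 154 with erlotinib. The groups did not overlap, and ABCB1 rose (log2 fold change 0.99 ± 0.19 (SE), adjusted p = 1.28e-04). Both rest on few reads, with 40 to 140 reads per library for ABCG2 and 64 to 166 for ABCB1, and the gene of ABCB1 overlaps RUNDC3B (mean signal 29.1). Because the strand used in counting is not stated, reads of overlapping genes cannot be told apart here.

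The other exporters of subfamily C moved less than ABCC3. ABCC2 (chr10:99782640-99852594, plus strand), which exports conjugates across the apical membrane, had a signal of 1471, 1778 and 1551 with DMSO and 2079, 2132 and 2098 with erlotinib. All erlotinib values exceeded the DMSO values, and ABCC2 rose by a modest amount (log2 fold change 0.40 ± 0.08 (SE), adjusted p = 1.43e-04). ABCC10 (chr6:43427541-43451994, plus strand), a relative that exports taxanes and other lipophilic drugs, had 549, 313 and 461 with DMSO and 742, 603 and 704 with erlotinib. Its DMSO libraries were spread widely, but the groups did not overlap (log2 fold change 0.66 ± 0.15 (SE), adjusted p = 5.38e-04), and the gene overlaps DLK2 (mean signal 110) among others. Without DMSO replicate 2, its lowest library, the log2 fold change was 0.43 (adjusted p = 9.96e-04). ABCC5 (chr3:183919934-184017884, minus strand), an exporter of cyclic nucleotides and nucleotide analogues, had 609, 665 and 701 with DMSO and 838, 750.4 and 782 with erlotinib. It rose (log2 fold change 0.26 ± 0.09 (SE), adjusted p = 0.0179), though the adjusted p was 0.0801 without DMSO replicate 1 and 0.0987 without the erlotinib library with its highest signal. ABCC4 (chr13:95019835-95301451, minus strand), which exports cyclic nucleotides and prostaglandins, had 1841, 2103 and 1837 with DMSO and 2074, 2138 and 2107 with erlotinib. The groups overlapped and the difference did not pass (log2 fold change 0.13 ± 0.08 (SE), adjusted p = 0.124). Without DMSO replicate 2, its highest DMSO library, the adjusted p was 0.00578, and with scaling to the total count it was 0.00131 at a log2 fold change of 0.31, beside a median of 0.19 for all genes.

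**Figure D2:**
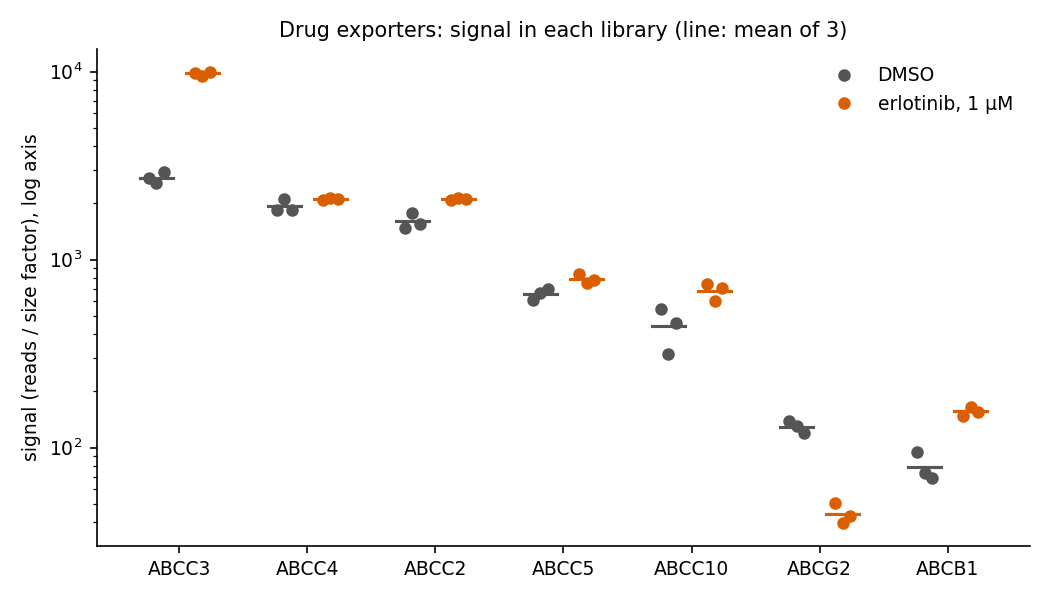
Signal (reads divided by size factor, log axis) of the 7 tested drug exporters in each library, with DMSO in grey and 1 μM erlotinib in orange and a line at the mean of 3 libraries. The erlotinib points lie above all DMSO points for ABCC3, ABCC2, ABCC5, ABCC10 and ABCB1, below them for ABCG2 and overlap them for ABCC4.

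The make-up of the exporter transcripts was then compared per kilobase of canonical transcript, so that genes of different length could be set side by side. The mapping did not align reads across introns, and division by length does not correct for this. Levels and shares compared between genes are therefore approximate. The signal per kb summed over the 7 tested exporters was 1331 ± 20.8 (SD, n = 3) with DMSO and 2755 ± 52.5 with erlotinib. ABCC3 made up 36.3%, 33.6% and 38.1% of this sum in the DMSO libraries and 62.4%, 62.1% and 62.9% in the erlotinib libraries. Without ABCC3, the sum was 852 ± 30.8 with DMSO and 1034 ± 11.0 with erlotinib, and in both cases the groups did not overlap. The share of ABCG2 was 2.31% ± 0.211 with DMSO and 0.383% ± 0.0446 with erlotinib. ABCB1 made up 1.14% ± 0.216 and 1.09% ± 0.0780, and its groups overlapped, so that its rise in signal left its share of the sum within the spread between libraries. The shares of ABCC2 (20.7% ± 1.92 and 13.2% ± 0.415) and ABCC4 (24.7% ± 1.89 and 13.1% ± 0.433) were lower with erlotinib, although the signal of neither gene fell. ABCC1, a major exporter of glutathione conjugates, was listed at 0 in every library and could not enter these shares.

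**Figure D3:**
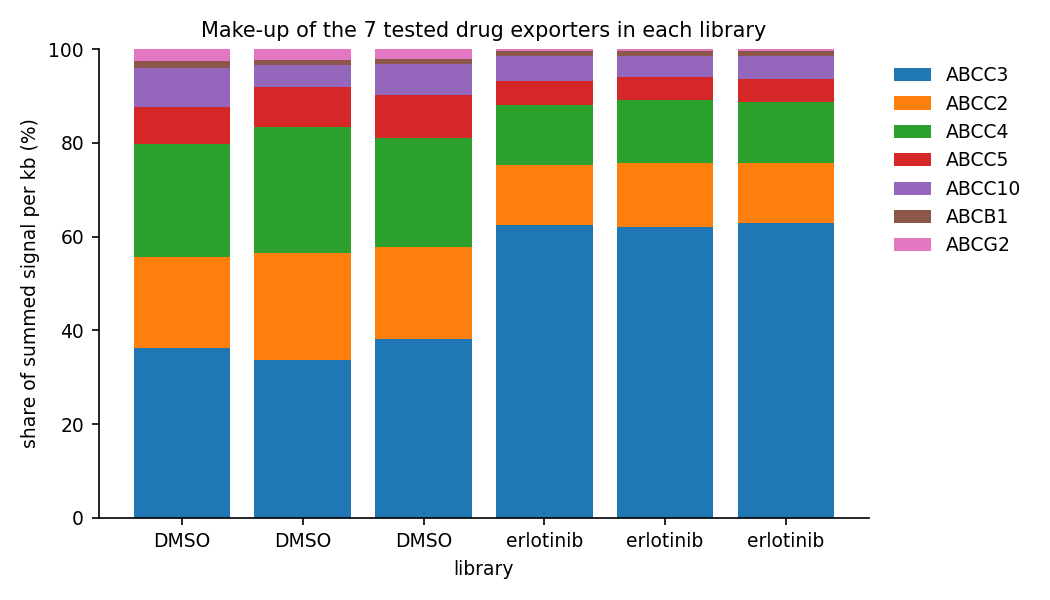
Share of each of the 7 tested drug exporters in their summed signal per kb (y axis, %) in the 3 DMSO and 3 erlotinib libraries. ABCC3 (blue) takes 33.6% to 38.1% in the DMSO libraries and 62.1% to 62.9% in the erlotinib libraries.

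Among the lipid transporters of subfamily A, ABCA12, ABCA5, ABCA2 and ABCA7 rose, whereas ABCA13 and the cholesterol exporter ABCA1 fell. ABCA12 (chr2:214931542-215138626, minus strand), known for loading glucosylceramide into the lamellar granules of skin, had a signal of 440.1, 540.5 and 443 with DMSO and 1207, 1223 and 1211 with erlotinib. The erlotinib libraries were tightly grouped and well above DMSO (log2 fold change 1.36 ± 0.10 (SE), adjusted p = 9.35e-11). ABCA5 (chr17:69244311-69327133, minus strand), a transporter of lysosomes and late endosomes, had 13.6, 29.7 and 22.5 with DMSO and 59.1, 75.2 and 55.2 with erlotinib. It rose from a low level without overlap (log2 fold change 1.54 ± 0.34 (SE), adjusted p = 4.24e-04). ABCA13 (chr7:48171458-48647497, plus strand), a very large member of the subfamily, had 21.6, 21.4 and 15.0 with DMSO and 7.38, 0.990 and 8.42 with erlotinib. It fell (log2 fold change -1.89 ± 0.66 (SE), adjusted p = 0.0153), but on at most 23 reads in a library. The erlotinib library with 1 read carried much of the difference, since the adjusted p was 0.0812 and the log2 fold change -1.17 without it. With a pseudocount of 10 the log2 fold change was -0.94, and with 0.1 it was -2.22. ABCA13 passed the minimum mean signal of 10 through its DMSO libraries alone (mean 19.3 with DMSO and 5.60 with erlotinib). Of the remaining 3 tested members, ABCA2, a lysosomal sterol and lipid transporter (log2 fold change 0.91), and ABCA7, a phospholipid exporter (log2 fold change 0.76), rose by less than 1 log2 unit, and ABCA1 fell by 0.67 on the log2 scale. The signal of ABCA1 was 922 ± 138 (SD, n = 3) with DMSO and 577 ± 36.1 with erlotinib. The sterol exporters of subfamily G and the phosphatidylcholine exporter ABCB4 had too few reads to be tested.

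Among the transporters of the mitochondrial membranes in subfamily B, changes in both directions were seen. ABCB6, which is linked to porphyrin transport, rose (log2 fold change 0.68, adjusted p = 6.85e-04). ABCB10, which stabilises the iron importer mitoferrin and takes part in haem synthesis, fell (log2 fold change -0.97, adjusted p = 8.68e-08), from a signal of 778 ± 84.1 to 397 ± 29.4. ABCB8 also fell (log2 fold change -0.40, adjusted p = 0.00385), although its groups overlapped. Without DMSO replicate 2, its lowest DMSO library, the log2 fold change was -0.51 (adjusted p = 8.23e-05). With scaling to the total count it was -0.22 (adjusted p = 0.0924), beside a median of 0.19 for all genes.

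The peroxisomal and lysosomal transporters also changed in both directions. ABCD3, the abundant peroxisomal membrane protein PMP70, fell (log2 fold change -0.53, adjusted p = 7.87e-06), from 2209.9 ± 185 to 1531 ± 118. ABCD4, which works in the release of vitamin B12 from lysosomes, rose (log2 fold change 0.67, adjusted p = 1.17e-05). ABCB9, a lysosomal peptide transporter, had a log2 fold change of -0.04 (adjusted p = 0.836), and it overlaps OGFOD2 (mean signal 603). Its sign turned without DMSO replicate 1 (0.10) and with scaling to the total count (0.14, beside a median of 0.19 for all genes).

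The members that act on ribosomes were among the most abundant ABC transcripts with DMSO. Of the 3 tested, 2 fell, beside 35.4% lower of all tested genes and with no test between the shares. ABCE1 (chr4:145098311-145129524, plus strand), which splits ribosomes after termination so that they can be used again, had a signal of 3567, 3904 and 3215 with DMSO and 1286, 1257 and 1270.2 with erlotinib. The groups were widely separated (log2 fold change -1.48 ± 0.08 (SE), adjusted p = 5.72e-13), and the fall ranged from -1.55 to -1.30 over the 14 alternatives. The gene overlaps ANAPC10 (mean signal 95.5), and 32.6% of its canonical transcript had a near-identical copy elsewhere in the genome, so that its level is uncertain. ABCF2 fell (log2 fold change -0.97 ± 0.07 (SE), adjusted p = 1.45e-10), from 2613 ± 77.5 to 1331 ± 41.1. ABCF3, a further member of the subfamily, did not pass (log2 fold change -0.14, adjusted p = 0.239). It was lower without DMSO replicate 2 (-0.26, adjusted p = 0.0156), but the log2 fold change was -0.036 (adjusted p = 0.782) without DMSO replicate 3. Its sign turned with scaling to the total count (0.036), beside a median of 0.19 for all genes. ABCF1, the third member, was listed at 0 in all libraries.

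The order of the levels per kb, with the limit on reads across introns given above, changed between the conditions. With DMSO, ABCE1 stood first (signal per kb 916 ± 88.6, SD, n = 3), followed by ABCD3 (613 ± 51.3) and ABCF2 (577 ± 17.1), whose libraries overlapped, then ABCC3 (479 ± 32.2) and, below it, ABCC4 (329 ± 26.0), ABCF3 (310.4 ± 47.0) and ABCC2 (276 ± 27.4), each overlapping its neighbour. With erlotinib, ABCC3 stood first (1721 ± 43.1), apart from ABCD3 (425 ± 32.9) in the next place. ABCC2 (362 ± 4.66) and ABCC4 (359.7 ± 5.53) followed and overlapped each other, and ABCE1 (327 ± 3.76) came after them. At the low end, ABCG2 stood above ABCB1 with DMSO (30.7 ± 2.34 against 15.1 ± 2.62) and below it with erlotinib (10.6 ± 1.36 against 29.9 ± 1.61), without overlap in either condition. The lowest 3 tested members were ABCC9, ABCA5 and ABCA13, with 6.55, 2.66 and 1.12 signal per kb with DMSO. ABCC9, a regulatory subunit of potassium channels, did not pass (log2 fold change -0.34, adjusted p = 0.265), although its DMSO signal (56.7 ± 5.91) and erlotinib signal (44.6 ± 2.72) did not overlap.

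**Figure D4:**
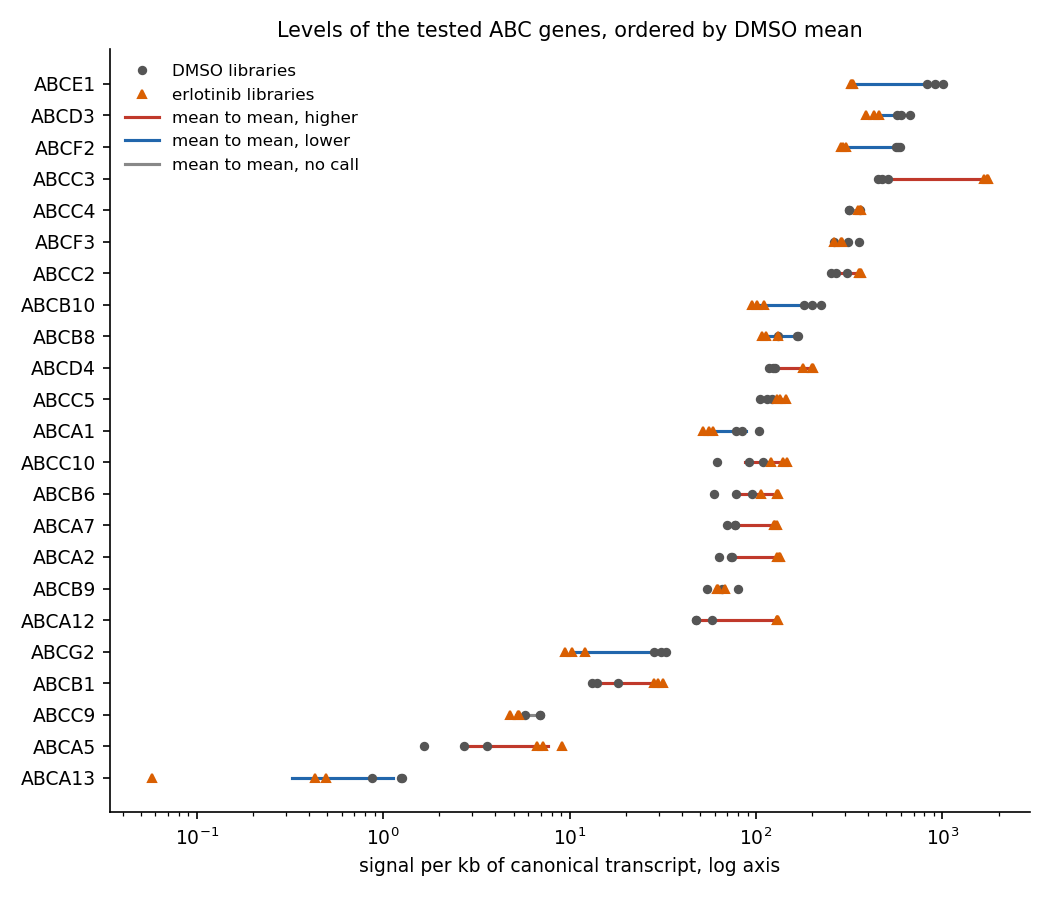
Signal per kb of canonical transcript (log axis) of 23 tested ABC genes in each library, ordered by the DMSO mean, with DMSO as grey dots, erlotinib as orange triangles and a line between the means coloured by the call. ABCC3 moves from the fourth place with DMSO to the first with erlotinib, at 1721 signal per kb.

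The 20 members that were not tested comprise 12 that were listed at 0 in all 6 libraries (ABCA6, ABCA8, ABCA9, ABCB5, ABCB11, ABCC1, ABCC6, ABCC8, ABCC12, ABCC13, ABCD2 and ABCF1) and 8 with reads. Of the 12 at 0, 3 had a full copy on alternate contigs of the genome, ABCC1 and ABCC6 on 1 contig each and ABCF1 on 6, against 0 of the 33 members with reads. A count of 0 of these 3 genes in uniquely mapped reads is therefore given only as listed, and was not read as absence of their RNA. The 8 members with reads were ABCA4, ABCA10, ABCB4, ABCC11, ABCG1, ABCG4, ABCG5 and ABCG8, and 5 of them had fewer than 10 reads in every library. ABCA4, the retinal lipid flippase, lay just below the minimum (mean signal 9.65) with 1, 1 and 2 reads with DMSO and 29, 13 and 15 reads with erlotinib, while ABCA13 (mean 12.4) lay just above it. With no minimum, ABCA4 was higher (adjusted p = 2.77e-04), as was ABCG5 (adjusted p = 0.00725), which had 0, 0 and 2 reads with DMSO and 3, 7 and 15 with erlotinib and overlaps DYNC2LI1 (mean signal 103). ABCC11, a drug exporter, had a signal of 5.41 ± 3.84 with DMSO and 10.3 ± 8.25 with erlotinib, its groups overlapped, and it lies over LONP2, a gene with a mean signal of 2855.

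The promoters of the members that changed by at least 1 log2 unit are shown where the RefSeq promoter table had an entry, together with that of ABCB1, since ABCB1 and ABCG2 moved apart. Each is the 100 bases directly upstream of the transcript start in GRCh38.p14, written 5′ to 3′ on the strand of the gene, and capitals mark the letters of 4 motifs searched on both strands, the GC box GGGCGG, the CCAAT box CCAAT, the E-box CACGTG and the core of the AHR site GCGTG. None of the 4 contains another, and a match on the other strand appears as its reverse complement. ABCC3 had no entry.
ABCA5 (chr17:69327134-69327233, minus strand): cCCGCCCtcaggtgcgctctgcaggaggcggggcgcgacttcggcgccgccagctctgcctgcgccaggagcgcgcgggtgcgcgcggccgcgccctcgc
ABCA12 (chr2:215138627-215138726, minus strand): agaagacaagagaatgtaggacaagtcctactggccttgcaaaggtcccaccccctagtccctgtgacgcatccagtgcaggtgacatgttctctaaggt
ABCA13 (chr7:48171358-48171457, plus strand): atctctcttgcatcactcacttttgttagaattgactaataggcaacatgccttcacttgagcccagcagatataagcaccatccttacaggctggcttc
ABCB1 (chr7:87600885-87600984, minus strand): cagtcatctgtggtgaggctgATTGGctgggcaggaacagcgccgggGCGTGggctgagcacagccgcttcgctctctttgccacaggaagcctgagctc
ABCE1 (chr4:145098211-145098310, plus strand): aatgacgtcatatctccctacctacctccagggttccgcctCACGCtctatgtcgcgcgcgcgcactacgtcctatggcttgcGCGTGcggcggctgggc
ABCG2 (chr4:88158640-88158739, minus strand): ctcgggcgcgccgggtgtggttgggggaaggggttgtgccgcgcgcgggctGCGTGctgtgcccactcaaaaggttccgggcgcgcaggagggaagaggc
The promoter of ABCA5 held 1 GC box and no other motif, those of ABCA12 and ABCA13 held none of the 4, ABCB1 held 1 CCAAT box and 1 AHR core, ABCE1 held 2 AHR cores and ABCG2 held 1. Of the 25 tested members, 22 had a promoter, and 11 of these held a GC box (31.3% of 35115 promoters did), 5 a CCAAT box (18.1%), 0 an E-box (3.43%) and 9 an AHR core (17.2%). The 35115 promoters were not limited to tested genes or to 1 entry per gene. The sets are therefore unlike, and their shares were not tested against each other. The AHR core stood in 3 of the 10 higher members with a promoter, in 4 of the 8 lower members and in 2 of the 4 that passed in neither direction. A match of letters is a description of the window, not evidence that a factor binds there.

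Genes known to work with ABC transporters or to control them were examined beside the members, as 40 genes in 4 lists. Of these, 28 were tested, 13 rose, 6 fell and 9 did neither (median log2 fold change 0.50), against the 35.3% higher and 35.4% lower of all genes given above. Of the list of ABC genes under another symbol, 0 of 3 were tested. The peptide transporter subunits TAP1 and TAP2, which belong to it and load antigen peptides for presentation, were both listed at 0 in every library, and each had full copies on 7 alternate contigs. The same was seen for RXRB, listed at 0 with copies on 5 contigs, so these zeros too were not read as absence.

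Among 11 tested transcription factors known to act on ABC genes, 7 rose (63.6%), 1 fell (9.09%) and 3 did neither, beside 35.3% higher and 35.4% lower of all tested genes and with no test between the shares. PPARA, a receptor for fatty acids, had a signal of 364, 393 and 301 with DMSO and 1955, 1904 and 1827 with erlotinib. Its rise was the largest among the 28 tested partner genes (log2 fold change 2.43 ± 0.10 (SE), adjusted p = 1.34e-14). PPARG, the related receptor that drives lipid storage, moved the other way, from 573, 716 and 692 to 293, 319 and 306. It was the only factor of the list that fell (log2 fold change -1.10 ± 0.11 (SE), adjusted p = 2.85e-08). TFEB, a regulator of lysosomal genes, rose on few reads, from 7.94, 11.1 and 16.1 to 43.4, 18.8 and 31.8 (log2 fold change 1.32 ± 0.46 (SE), adjusted p = 0.0151). AHR (log2 fold change 0.84), RXRA (0.60), the liver X receptors NR1H2 (0.56) and NR1H3 (0.43) and NFE2L2 (0.25) also rose, and were named after their values were seen. The groups of NFE2L2 overlapped. NR1H3 overlaps ACP2 (mean signal 247), a gene with more signal than its own (173).

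Proteins that work directly with ABC transporters rose in 4, fell in 4 and did neither in 3 of 11 tested cases, or 36.4% in each direction, beside 35.3% higher and 35.4% lower of all tested genes. LMBRD1, the partner of ABCD4 in the release of vitamin B12 from lysosomes, had a signal of 123, 116 and 102 with DMSO and 302, 262 and 299 with erlotinib. It rose without overlap (log2 fold change 1.34 ± 0.15 (SE), adjusted p = 1.47e-07), as ABCD4 did. PDZK1, a scaffold for apical transporters such as ABCC2, was low, at 3.40, 4.64 and 9.63 with DMSO and 51.7, 8.91 and 24.3 with erlotinib. The groups overlapped, the call rests on at most 56 reads in a library (log2 fold change 1.88 ± 0.64 (SE), adjusted p = 0.0123), and 87.3% of its transcript had a near-identical copy elsewhere in the genome. PDZK1, 1 of the 4 that rose, passed the minimum mean signal of 10 through the erlotinib libraries alone (mean 5.89 with DMSO and 28.3 with erlotinib). In the list of drug conjugation and other export, 2 of 6 tested rose, 1 fell and 3 did neither, so that the share that rose (33.3%) was near the 35.3% of all tested genes. MVP, the major vault protein that has been linked to drug resistance, rose from 2636, 1999 and 2324 to 6349.9, 6375 and 6283 (log2 fold change 1.46 ± 0.08 (SE), adjusted p = 1.60e-12), and it overlaps PAGR1 (mean signal 1112). GCLM, the modifier subunit of the enzyme that limits glutathione synthesis, fell from 4848, 5227 and 4838 to 1978, 2096 and 2068 (log2 fold change -1.28 ± 0.07 (SE), adjusted p = 6.34e-13). Its catalytic partner GCLC did not pass (log2 fold change 0.07, adjusted p = 0.436), and was named after its value was seen.

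**Figure D5:**
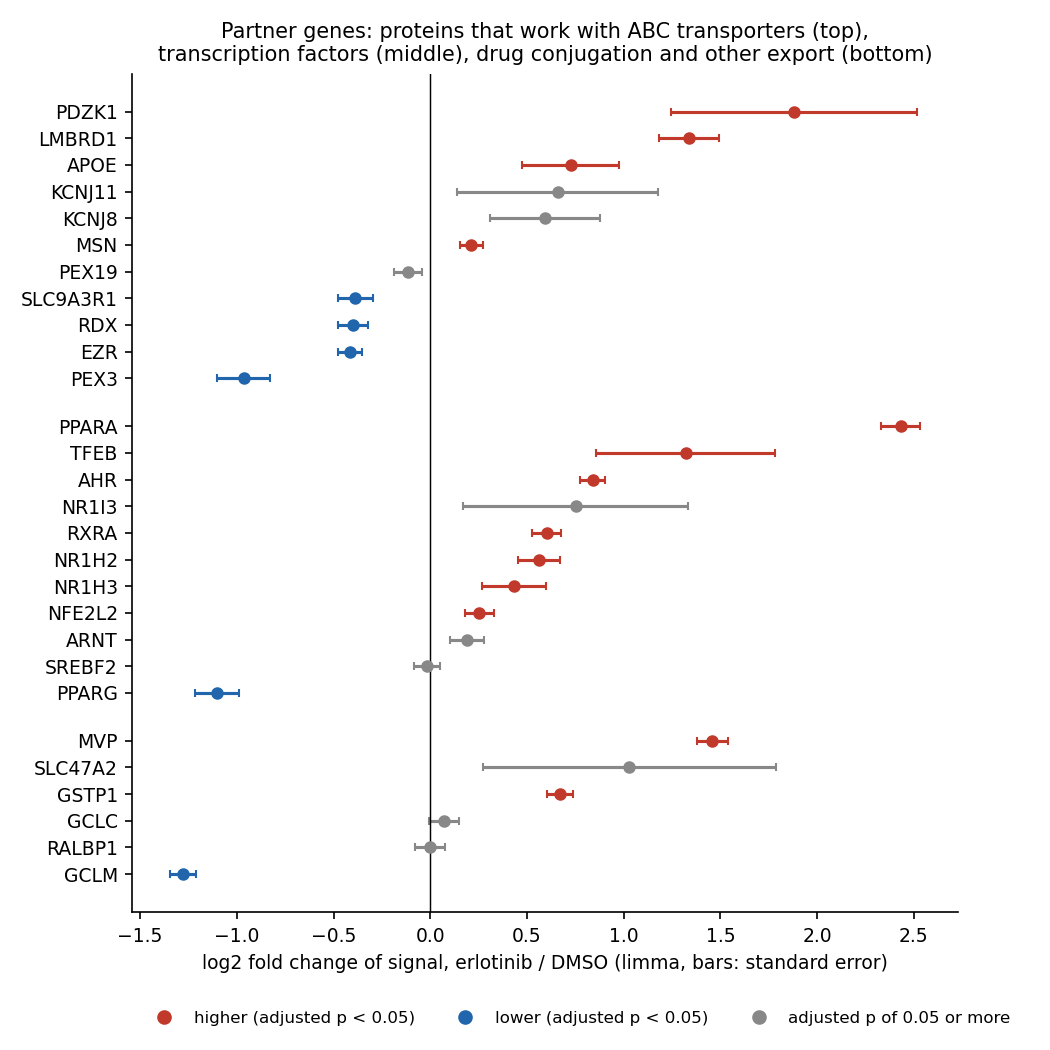
Log2 fold change of signal with erlotinib relative to DMSO (x axis, limma, bars are standard errors) for the 28 tested partner genes, in the order of proteins that work with ABC transporters, transcription factors, and drug conjugation and other export. Red marks the 13 higher, blue the 6 lower and grey the 9 that passed in neither direction, with PPARA at 2.43 and GCLM at -1.28 as the ends of the range.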

How the data were processed

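Reads from 3 DMSO and 3 erlotinib libraries of poly(A) RNA were mapped to GRCh38 with Bowtie2 2.3.4, which does not align a read across an intron, and those that mapped uniquely were assigned to genes with featureCounts 1.6.3 by the authors, whose processing notes also name DESeq2 1.18.1. The strand counted is not given in the sources used here. The deposited table holds signal, that is reads divided by 1 size factor per library, and 100% of them gave whole reads within 0.01.

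For each of 14215 genes whose signal averaged at least 10, log2(signal + 1) was compared in limma (variance trend, two-sided, Benjamini-Hochberg adjustment over all of them, threshold 0.05). This scale understates the changes of low genes. The deposited table lists 475 genes without a symbol, which were not left out for that reason. Replicates differed by more than sampling noise, with a chi-square of 4.05 to 22.9 per degree of freedom, highest for the pairs with DMSO replicate 2. The scripts were tested on simulated data. Some single genes, also among the rows with an ABC symbol, are not reported here.

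The members and all gene lists were chosen with earlier results of these data known. Values in every library are given for tested drug exporters, for members and partner genes that passed by at least 1 log2 unit, and for TAP1 and TAP2, and other members by fold change or range. Canonical GENCODE transcripts gave the lengths and were aligned to the genome with its 261 alternate contigs, and at least 90% aligned at 97% identity or more was taken as a copy. RefSeq on GRCh38.p14 gave positions of 45 and promoters of 34 members.

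Alternatives were DESeq2 and edgeR (TMM) on recovered reads, scaling to the total count, TMM factors in limma, pseudocounts of 0.1 and 10, no minimum, a minimum of 10 in every library, a threshold of 0.01, each library left out in turn, and leaving out members that overlap a listed gene or have a copy, which was chosen for exporters and partner genes after seeing the data. Versions were limma 3.58.1, DESeq2 1.42.0 and edgeR 4.0.16 in R 4.3.3, with matplotlib 3.10.9 in Python 3.11.15 for figures and minimap2 2.31-r1302 for alignment.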

Additional observations from a re-analysis of the deposited data

How the results depend on the processing

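Of the 25 tested ABC genes, 18 kept their direction and their side of the threshold in every alternative that gave a value, 11 of them higher, 6 lower and 1 neither, with up to 14 alternatives per gene. The other 7 included ABCA13, ABCB8, ABCB9, ABCC4, ABCC5 and ABCF3, and none of the genes called higher or lower changed sign. ABCB9 turned from -0.04 to 0.14 with scaling to the total count, and ranged from -0.17 to 0.10 when a library was left out. ABCF3 turned to 0.036 with scaling to the total count. That scaling also moved the median of all tested genes from 0.02 to 0.19, so a turn of sign under it is not particular to these genes. The cause of these changes was not tested. The number of higher ABC genes was 12, 11 to 13 when a library was left out, and 6 without the members that overlap a listed gene or have a copy, a setting that tests fewer genes. The number of lower ABC genes was 8, and 7 to 9 when a library was left out. Higher drug exporters numbered 5, with 4 to 6 when a library was left out, and lower ones 1 in each setting. The overlap setting, added for exporters and partner genes after seeing the data, left 2 higher of 4 tested exporters, and 9 higher and 4 lower of 20 tested partner genes. PDZK1 stayed among these 9, because the copied part of its transcript (87.3%) was below the 90% taken as a copy. Partner genes counted 13 higher, with 9 to 14 when a library was left out and 18 with scaling to the total count, and 6 lower in the other settings. The 9 came from leaving out the erlotinib library Erlo4, and leaving out any other library gave 12 to 14. TFEB and PDZK1 had their highest signal in Erlo4. Calls of single partner genes with a library left out are not given here. With no minimum, the median of subfamily G was 0.80 instead of -1.52, since members with almost no reads then entered. ABCA13 was not tested with a minimum of 10 in every library. No paired analysis was possible because the columns of the erlotinib libraries do not carry the replicate numbers of the labels. Depth limits most the members with fewer than 100 reads in every library, ABCA5, ABCA13 and ABCC9 among those tested.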
